A study of Procambarus virginalis with 4 samples.

Results

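RNA-seq of hemocytes from marbled crayfish held 193 features whose level was at least 3-fold lower in both *Dnmt1* knockdown (KD) libraries than in both control libraries, of 111422 features listed. KD animals had been injected with dsDnmt1, a double-stranded RNA against *Dnmt1*, and control animals with dsGFP, a double-stranded RNA against a green fluorescent protein. Both injections went into the hemolymph, and hemocytes were collected from 2 KD and 2 control animals 28 days post-injection (dpi). Marbled crayfish reproduce without males and form a single clone, so that no strain or genotype was compared. The study used females of 1 to 3 years, and the age of each animal behind these libraries is not stated. The levels are given as TPM, values of transcript abundance that take the length of a feature into account and add up to 1000000 in every library. A feature is an entry named by a scaffold of the genome assembly and a number. The 193 members were selected on these same TPM values, by the rule that the mean over the 4 libraries was at least 1 TPM and that the lower control value was above 0 and at least 3 times the higher KD value. The 100 features of highest mean TPM were left out, and none of them would have passed. The rule could take 21574 features, and the members were 0.895% of these. The same rule in the other direction, higher in KD, took 88 features.

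Dnmt1 copies CpG methylation onto the new DNA strand after replication, and in arthropods this methylation lies mainly in the bodies of genes that are transcribed in most cells. Hemocytes are the circulating cells of crustacean immunity. They take part in phagocytosis, encapsulation and melanization, and are described as hyaline, semigranular and granular cells, and in crayfish a subset of them serves as a source of neuronal precursors. The files do not pair the feature IDs with gene names, so no member is given a function here, no pathway or cell type marker could be counted, and the level of *Dnmt1* and the identity of the cells as hemocytes were not checked. Before counting, the authors had removed the exons of *Dnmt1* that the injected RNA covers. In bulk samples fewer cells of a type and less RNA per cell cannot be told apart.

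Depth was read back from the TPM values, whose ratios are those of whole reads. It came to 30782726 and 27933486 reads in KD libraries 1 and 2 and 24261401 and 29977177 reads in control libraries 1 and 2. Of the features the rule could take, 23.2% were lower in both KD libraries than in both controls by any amount, and their median log2 fold change, KD over control on the log2(TPM + 1) scale, was -0.03. Of the 193 members, 42 passed an adjusted p of 0.05 in a limma fit over all features, where 0.194% of the 21674 features tested were called lower in KD. The members were chosen by this contrast, so that their count is a description. Leaving out a library leaves 1 library in a group, so from such fits only the median log2 fold change of the members is given. It was -1.79 without KD replicate 1, -1.82 without KD replicate 2, -1.68 without control replicate 1 and -2.09 without control replicate 2. With all libraries it was -1.86. The members were selected on all these libraries, so that a negative median was set by the rule whichever library is left out. The count of 42 became 19 with a pseudocount of 0.1, 20 at a mean of at least 5 TPM and 21 in TPM without the 10 highest features. Over all features tested, 19 of 21674, 20 of 11257 and 21 of 25344 were called lower in these settings. Only 51 of the members were tested at a mean of at least 5 TPM. With limma voom on recovered reads the count was 93, where 117 of 37545 features were called lower. Without a filter limma called 0. An unadjusted p under 0.05 in that fit was found for 191 members and for 4116 of the 58226 features tested. With 1 library left out the 3-fold condition is easier to pass. The mean of at least 1 TPM was then taken over the libraries kept, and for members it is lower without a control library. The rule took 419 features without KD replicate 1, 386 without KD replicate 2, 405 without control replicate 2 and 213 without control replicate 1.

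Most members were of low level. Their median was 0.370 TPM in KD 1 and 0.415 TPM in KD 2, against 5.03 TPM in control 1 and 3.75 TPM in control 2. The feature of median level among all those the rule could take had 5.32 and 5.28 TPM in the KD libraries and 5.24 and 5.40 TPM in the control libraries, so that the control levels of the members lay close to, or below, the middle of the range. The mean control level of the members ran from 1.76 to 517 TPM. Together they made up 0.0613% and 0.0504% of all TPM in KD 1 and KD 2, against 0.447% and 0.313% in control 1 and control 2. In the median member the higher KD value was 17.8% of the lower control value, with quartiles at 6.47% and 26.7%. The log2 fold change of the members ran from -4.96 to -0.97 with a median of -1.86, on a scale that understates the change of low features.

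**Figure D1:**
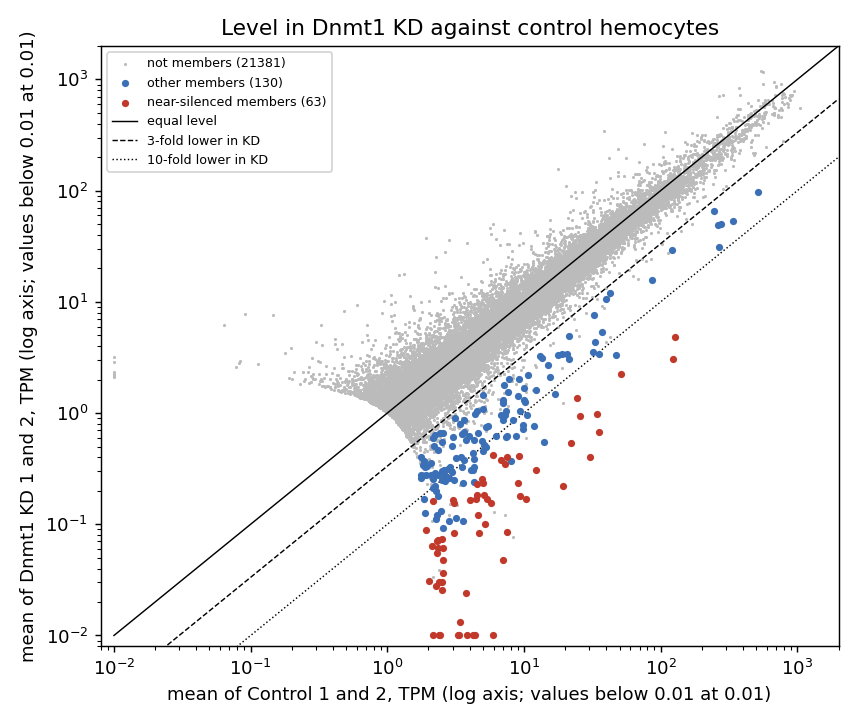
Mean TPM of the 2 KD libraries (vertical, log axis) against that of the 2 control libraries (horizontal, log axis) for the 21574 features the rule could take. The 130 other members and 63 near-silenced members lie below the dashed line of a 3-fold lower mean, and 9 members with no KD read lie on the lower edge of the plot.

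Close to the limit, the member just inside it lay on scaffold WNGS01113158 and had 0.360 and 0.321 TPM in KD and 1.08 and 2.55 TPM in control hemocytes, where the lower control value was 3.003 times the higher KD value. The feature just outside it lay on WNGS01138673 and had 0.819 and 0.788 TPM in KD and 2.997 and 2.44 TPM in control hemocytes, a ratio of 2.99. Members near the limit and features just beyond it thus had like values.

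Members were called near-silenced where the higher KD value was at most 10% of the lower control value. There were 63 of them, or 32.6% of the members, and 125 without KD replicate 1 and 117 without KD replicate 2, where the rule is easier to pass. They were not features of lower control level, since their median mean control level was 4.54 TPM and that of the 130 other members 4.35 TPM. Their share was 34.3% of the 105 members under 5 TPM in control, 30% of the 60 members from 5 to 20 TPM and 32.1% of the 28 members above 20 TPM. The KD level of near-silenced members had a median of 0.120 TPM, and 46 of the 63 rested on fewer than 10 KD reads over both libraries.

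The near-silenced member of highest control level was WNGS01163947.2097304. It had 6.04 and 3.53 TPM in KD hemocytes, from 84 and 44 reads, against 76.8 and 179 TPM in control hemocytes, from 782 and 2385 reads. KD 1 lay above KD 2 and control 1 below control 2, and the groups were far apart. By summed reads the KD level was 3.60% of the control level, with an exact 95% interval of 2.997% to 4.30%. This interval and those given hereafter cover counting error only and not the difference between animals.

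Next to it in level was the near-silenced member on WNGS01165503, which also had the lowest log2 fold change of all members. It had 2.07 and 3.998 TPM in KD hemocytes and 147 and 98.8 TPM in control hemocytes, where the lower control value was well above the higher KD value. Its KD level was 2.49% of the control level by summed reads (exact 95% interval 2.03% to 3.02%). The remaining 8 of the 10 members of highest control level were not near-silenced.

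Among these, WNGS01166025.2464316_0_covsplit had the highest level of all members. It had 114 and 80.5 TPM in KD hemocytes, against 679 and 355 TPM in control hemocytes, from 6981 and 4412 reads in KD and 30394 and 20836 reads in control libraries. Both groups had their higher value in replicate 1, and the lower control value exceeded the higher KD value by little more than the rule asked. Its KD level was 19.8% of the control level by summed reads (exact 95% interval 19.4% to 20.2%).

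A pair of members on scaffold WNGS01109749, outside of any run, followed. The first of them in order of level had 66.6 and 39.0 TPM in KD and 434 and 237 TPM in control hemocytes. The second had 67.0 and 32.9 TPM in KD and 328 and 221 TPM in control hemocytes. In both, replicate 1 was the higher library in either group. The scaffold held 20 features that the rule could take, of which these were the only members.

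The member on WNGS01025112 had 34.4 and 28.5 TPM in KD hemocytes and 328 and 207 TPM in control hemocytes, and was the sole feature of its scaffold that the rule could take. A further member on WNGS01163947 had 42.7 and 56.2 TPM in KD and 355 and 174 TPM in control hemocytes. These had their higher control value in control 1. A member on WNGS01028583 had 76.0 and 55.2 TPM in KD hemocytes against 240 and 250 TPM in control hemocytes, with control libraries that were close to each other. The member on WNGS01066681 had 24.4 and 34.2 TPM in KD and 138 and 105 TPM in control hemocytes. The member on WNGS01096042 had 20.6 and 10.7 TPM in KD and 105 and 68.1 TPM in control hemocytes. The 10 members of highest control level held 62.2% of the summed mean control TPM of all members, and 8 of the 10 were higher in control 1 than in control 2.

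In 9 members neither KD library held a read. Their bounds set the control level by summed reads of both controls against a floor of 3 reads over both KD libraries. This one-sided limit gives a somewhat higher fold than the two-sided interval used for members with KD reads. The member on WNGS01165751 was at least 56.8-fold lower in KD, with 0 TPM in both KD libraries and 4.13 and 2.49 TPM in control hemocytes. The member on WNGS01163002 was at least 52.7-fold lower, with 0 TPM in both KD libraries and 3.51 and 8.44 TPM in control hemocytes. These bounds rest on 152 and 141 control reads and were the highest of the 9.

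The member on WNGS01159313 was at least 36.6-fold lower, with 0 TPM in both KD libraries and 6.07 and 1.59 TPM in control hemocytes. On WNGS01169498 a member was at least 13.1-fold lower (0 TPM in both KD libraries, 7.18 and 1.63 TPM in control), and on WNGS01163519 at least 12.3-fold lower (0 TPM in both KD libraries, 4.93 and 3.55 TPM in control). In 3 of these members, control 1 was the higher control library. The members on WNGS01164437 and WNGS01167840 were at least 8.22-fold and 7.10-fold lower, with 0 TPM in the KD libraries and with 2.04 and 2.73 TPM and 2.54 and 1.75 TPM in control hemocytes. Both rested on 22 or fewer control reads, so that the depth allows no higher bound.

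For the other members with no KD read, 1 control library decided the level. On WNGS01049644 a member with 0 TPM in both KD libraries had 0.660 and 6.05 TPM in control hemocytes, from 3 and 36 reads, and was at least 14.6-fold lower in KD. On WNGS01169217 a member with 0 TPM in both KD libraries had 4.61 and 0.220 TPM in control hemocytes, from 16 and 1 reads, and was at least 6.35-fold lower in KD. The lower control value of this last member rested on 1 read. It lay below the KD floor of 0.333 TPM, so that no fall against that control library alone can be shown. For the member on WNGS01049644 the KD floor was 0.255 TPM, against a lower control value of 0.660 TPM.

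A further 31 members had 1 to 3 KD reads. The member with the lowest KD level among these lay on WNGS01092210, with 0 and 0.0262 TPM in KD and 4.27 and 2.60 TPM in control hemocytes, from 1 read in KD and 239 reads in control libraries. Its KD level was 0.373% of the control level, with an exact 95% interval of 0.0094% to 2.10%. A member on WNGS01162647 had 0 and 0.0487 TPM in KD and 3.76 and 3.78 TPM in control hemocytes, with a KD level of 0.611% (exact 95% interval 0.015% to 3.46%). In both, the whole interval lay below 10%. Of the 54 near-silenced members with a KD read, 41 had an upper end of the interval under 10%, and of all 184 members with a KD read, 160 had one under a ratio of 1 to 3. The members were selected on these same values and limits, so that the intervals and counts are a description.

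**Figure D2:**
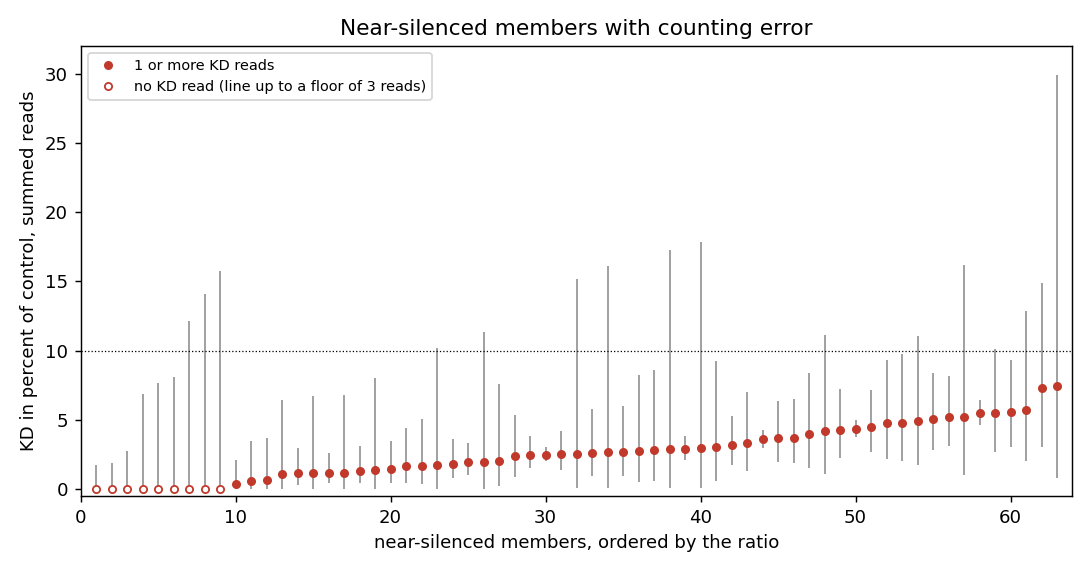
KD level in percent of the control level by summed reads (vertical) for the 63 near-silenced members, ordered by this ratio (horizontal), with exact 95% counting intervals as lines for the 54 with a KD read and lines up to a floor of 3 reads for the 9 with none (open circles). All points lie below the dotted line at 10%, and 41 of the intervals and 6 of the 9 floors lie below it. The near-silenced members were selected on these same values.

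Some members were neighbours by number. A run was taken as 2 or more members on 1 scaffold, each within 10 numbers of the next. Feature numbers go up with the name of the scaffold over all 18064 scaffolds listed, but no source used here says whether they follow position within a scaffold or whether neighbours are separate genes or pieces of 1 gene. There were 21 runs on 17 scaffolds, with 47 members or 24.4% of all. Members in runs numbered 83 without KD replicate 1, 79 without KD replicate 2 and 80 without control replicate 2. One run had 4 members, 3 runs had 3 and 17 runs had 2. Near-silenced members made up 24 of the 47, and 38.1% of near-silenced members lay in runs, against 17.7% of the other members. In 7 runs every member was near-silenced, in 8 runs none was, and 6 runs held both kinds.

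The run of 4 members lay on WNGS01003267, a scaffold with 13 features listed. In order of number, the first of the run had 0.299 and 0.499 TPM in KD hemocytes and 34.2 and 26.5 TPM in control hemocytes. The second had 0.797 and 0.555 TPM in KD and 36.9 and 34.0 TPM in control hemocytes. All KD values were under 1 TPM and came from 8 reads or fewer in a library. The third had 0.248 and 0.0920 TPM in KD and 10.4 and 10.2 TPM in control hemocytes. The fourth had 0.320 and 0.119 TPM in KD and 19.5 and 19.4 TPM in control hemocytes. Control libraries were close to each other in the last 3 of the run.

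One more member on WNGS01003267, farther away by number, had 0.313 and 0.305 TPM in KD and 11.8 and 12.5 TPM in control hemocytes. In these 5 members the mean KD level was between 1.13% and 2.54% of the mean control level, with 41 reads in the KD libraries and 1982 in the control libraries in all. They were all the features of the scaffold that the rule could take. Of the other 8 features, 5 were at 0 in every library and 3 were under the filter. Among these 3, the feature nearest to the run had 0.748 and 0.417 TPM in KD and 0.681 and 0.650 TPM in control hemocytes, from 6 and 3 reads in KD and 4 and 5 reads in control libraries, and its groups overlapped. WNGS01003267 was the only scaffold with 3 or more features that the rule could take on which all of them were members.

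On WNGS01009202 a run of 3 members was near-silenced throughout, with no other feature listed between them. The first had 0.360 and 0 TPM in KD and 10.3 and 8.44 TPM in control hemocytes. The second had 0 and 0.0946 TPM in KD and 7.76 and 6.19 TPM in control hemocytes. The third had 1.05 and 0.835 TPM in KD and 27.2 and 24.5 TPM in control hemocytes. In each of them control 1 was slightly above control 2, and the KD reads numbered 7 or fewer in a library.

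The run of 3 members on WNGS01001312 held no near-silenced member. The first had 1.38 and 0.558 TPM in KD and 8.37 and 5.29 TPM in control hemocytes. The second had 4.09 and 2.98 TPM in KD and 43.2 and 20.5 TPM in control hemocytes. The third had 1.99 and 1.004 TPM in KD and 25.3 and 8.72 TPM in control hemocytes. In all 3, replicate 1 was the higher library in both groups. A further member on the same scaffold, outside of the run, had 4.58 and 2.01 TPM in KD and 69.8 and 24.5 TPM in control hemocytes, with the same order of the libraries.

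The run of 3 members on WNGS01092210 was mixed. Its first member had 0.188 and 0.179 TPM in KD and 5.63 and 4.50 TPM in control hemocytes. Its second had 0.799 and 1.15 TPM in KD and 41.6 and 26.9 TPM in control hemocytes. Both were near-silenced, at 3.68% and 2.89% of the control level by summed reads. The third had 0.762 and 0.567 TPM in KD and 2.62 and 2.47 TPM in control hemocytes, or 26.4% by summed reads, with an exact 95% interval of 18.5% to 37.0% that passes a ratio of 1 to 3. Of the 7 other features listed between these members, 4 were at 0 in every library and 3 were under the filter.

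The run of highest total level was the pair on WNGS01166025, which included the member of highest level named above. The other member of the pair had 0.478 and 0.533 TPM in KD and 2.50 and 1.88 TPM in control hemocytes, from 18 reads in each KD library and 69 and 68 reads in the control libraries. The single feature between them had 34.3 and 21.1 TPM in KD and 132 and 94.7 TPM in control hemocytes. It was lower in both KD libraries, but its lower control value was less than 3 times its higher KD value. These were all 3 features listed on that scaffold.

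**Figure D3:**
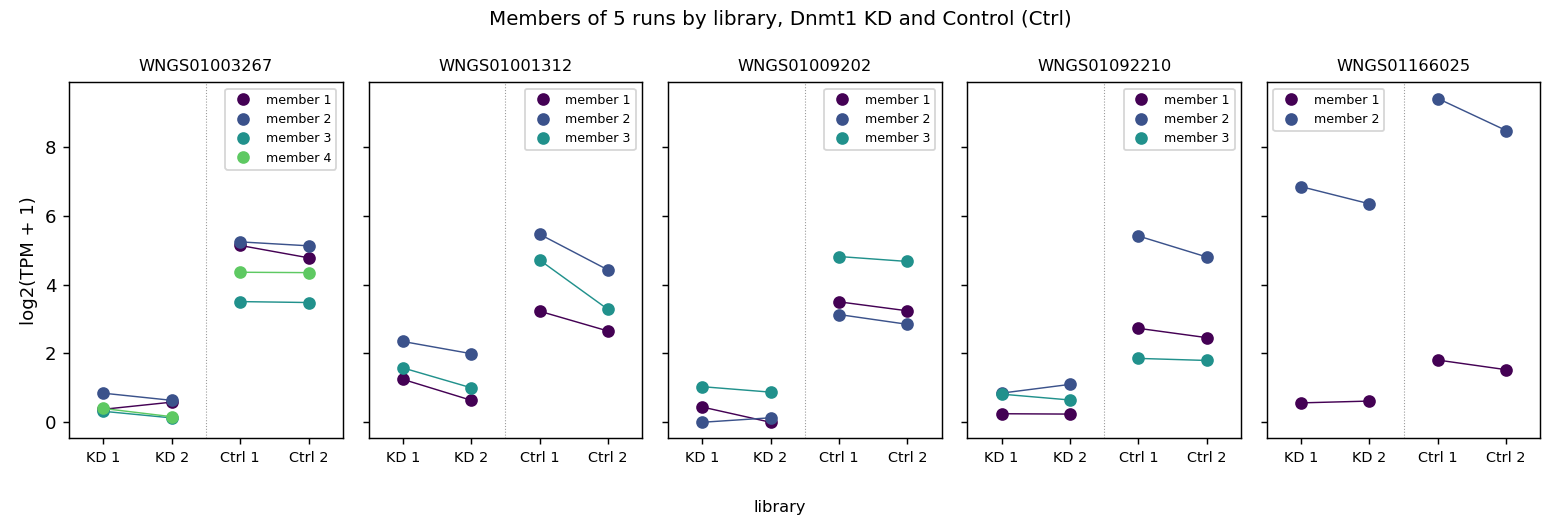
Level as log2(TPM + 1) (vertical) of each member of 5 runs in KD libraries 1 and 2 and control libraries 1 and 2 (horizontal), 1 panel per scaffold and members in order of number. In every member both KD points lie below both control points, as the rule asks, and control 1 lies above control 2 in every member of the 5 runs.

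The other 16 runs were pairs of low level, with mean control levels from 2.27 to 9.78 TPM and mean KD levels of at most 2.02 TPM. In 2 of them, on WNGS01066681 and WNGS01159313, both members carried the same number and differed by the part given in the suffix _covsplit. Whether the reads of such a pair come from 1 transcript was not tested. Over all 21 runs, 18 features that were not members lay between members. Of these, 7 were at 0 in every library, 6 were under the filter and 5 missed the 3-fold limit, of which 3 were lower in both KD libraries than in both controls.

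Around the members, 308 features that the rule could take lay within 10 numbers of a member, and 47 of them, or 15.3%, were themselves members, beside 0.895% over all features the rule could take. Of the other 261, 85 were lower in both KD libraries than in both controls, or 32.6%, beside 22.5% of all 21381 features that were not members. Their median log2 fold change was -0.10, beside -0.03 over all features that were not members. A neighbour that the rule could take was present for 55.4% of the members and for 57.4% of all features. No test was made on these shares, since neighbouring features are not independent of each other.

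By scaffold, members lay on 74 of the 2285 scaffolds with a feature that the rule could take, and 35 scaffolds held 2 or more. WNGS01092210 had most, with 17 members of 757 features or 2.25%, of which 3 were near-silenced. WNGS01001312 had 14 members of 1313 features (1.07%) with 1 near-silenced, WNGS01042707 had 9 of 660 (1.36%) with 6 near-silenced, and WNGS01000543 had 8 of 279 (2.87%) with 2 near-silenced. The median log2 fold change over all features of these 4 scaffolds lay between -0.07 and -0.0012. Features lower in both KD libraries than in both controls were 199 of 757, 286 of 1313, 172 of 660 and 68 of 279. Over all features the rule could take the share was 23.2%. On 21 scaffolds the member was the sole feature that the rule could take, which holds for 10.9% of the members and for 9.01% of all features.

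**Figure D4:**
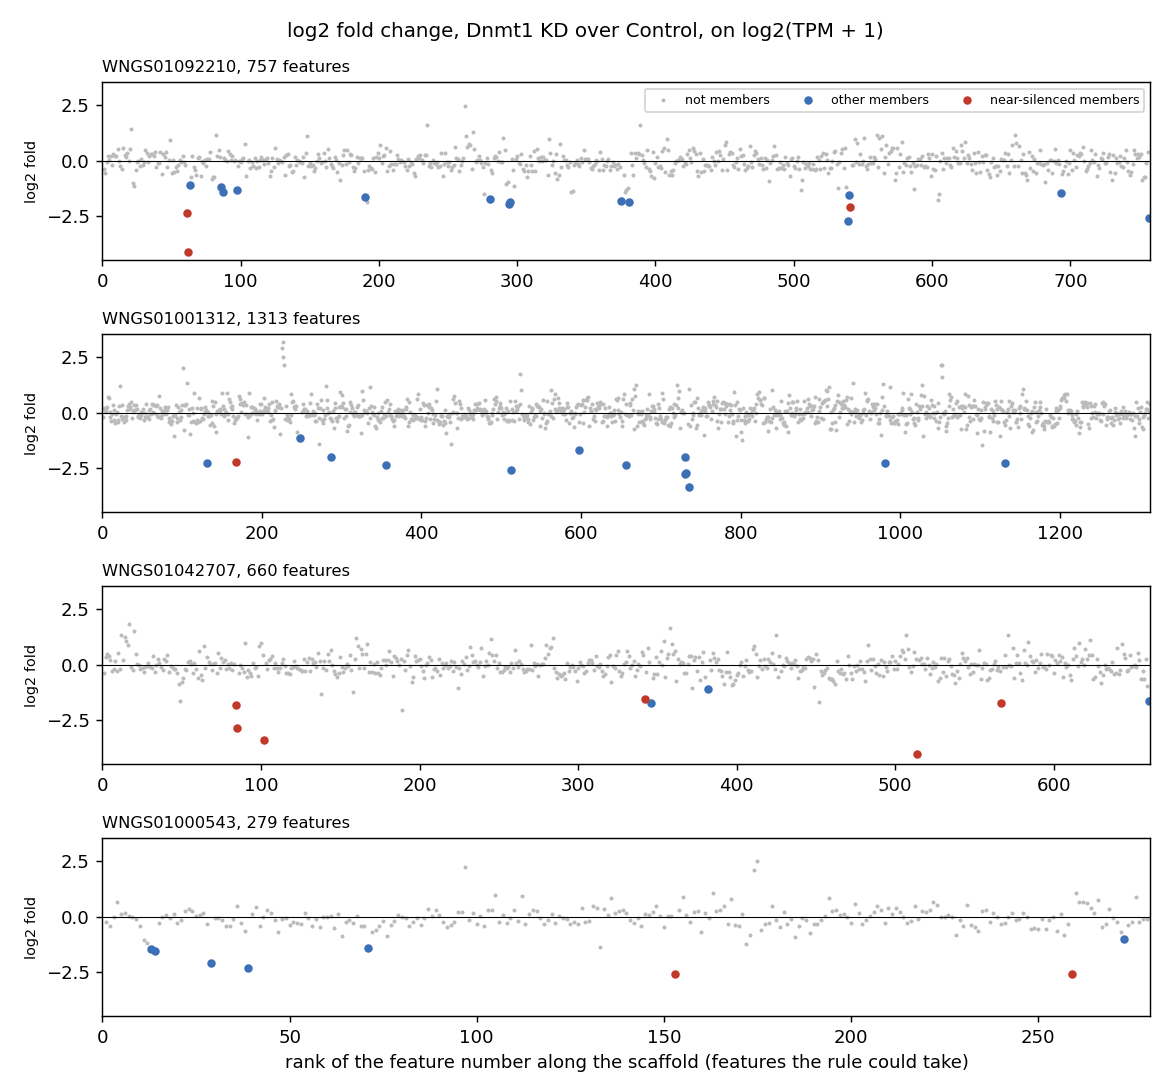
log2 fold change, KD over control on log2(TPM + 1) (vertical), by rank of the feature number (horizontal) on the 4 scaffolds with most members. Features that are not members scatter around 0, and the 17, 14, 9 and 8 members lie below it, singly and in small groups.

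Length and naming were not used by the rule. The members had a median recovered length of 803 bases with quartiles at 453 and 1740 bases, beside a median of 924 bases with quartiles at 468 and 1893 bases over all features the rule could take. The suffix _covsplit, whose meaning no source used here states, was carried by 52.8% of the members and 49.6% of all those features, and by 47.6% of near-silenced members and 55.4% of the other members. These values lay close together, and no test was made on them. The members had fewer reads, with a median of 178 over the 4 libraries beside 396. The median member had 15 reads in the KD libraries together and 156 in the control libraries together. In 17 members a control library held fewer than 10 reads.

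Within the groups, the members leaned to one control library and to neither KD library. KD 1 was above KD 2 in 101 of the 193 members, or 52.3%, beside 47.8% of all features the rule could take. Control 1 was above control 2 in 147 members, or 76.2%, beside 51.9% of all those features. Among near-silenced members this held for 50 of 63, and among the others for 97 of 130. The median ratio of control 1 to control 2 was 1.31 in the members and 1.03 over all features above 0 in both. In 41 members, or 21.2%, control 1 was at least 2 times control 2, beside 6.90% of all features, and in 6 members control 2 was at least 2 times control 1. The part of this difference between the control animals in the members' fold change was not tested. Without control replicate 1 the rule took 213 features, of which 56 were near-silenced and 35 lay in runs.

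A difference of 4-fold or more between the controls was seen in 7 members, or 3.63%, beside 691 or 3.20% of all features the rule could take. Features at 0 in a control library are part of that total but were not counted as differing. On WNGS01111181 a member had 0.540 and 0.568 TPM in KD and 24.0 and 3.75 TPM in control hemocytes, from 707 control reads. On WNGS01169217 a member had 0.216 and 0 TPM in KD and 6.48 and 0.675 TPM in control hemocytes. In both, control 1 was far above control 2, and control 1 was the higher library in 6 of the 7.

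**Figure D5:**
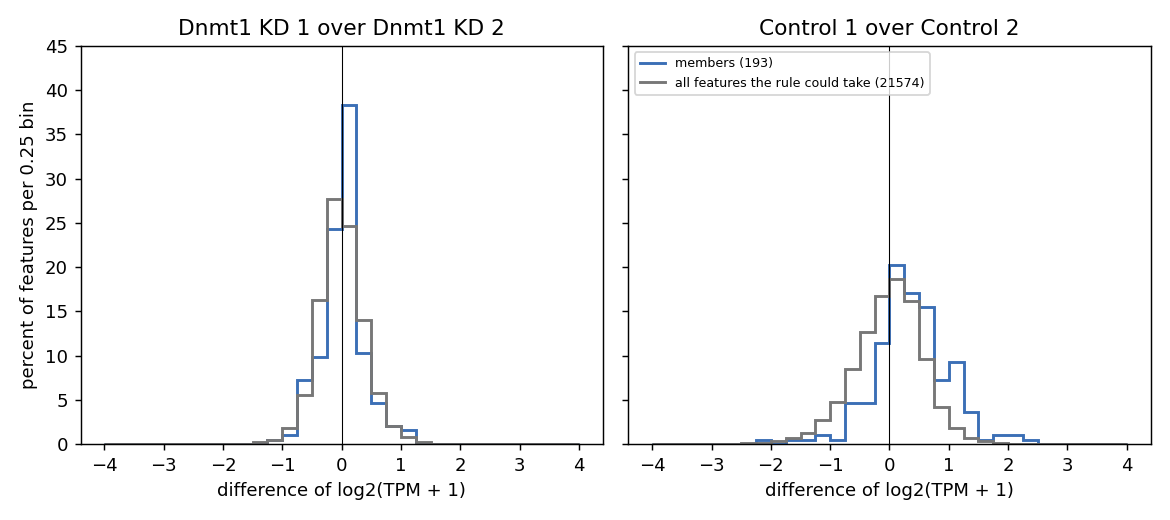
Difference of log2(TPM + 1) between replicate 1 and replicate 2 (horizontal, bins of 0.25) within the KD group (left) and the control group (right), in percent of features (vertical), for the 193 members and the 21574 features the rule could take. The members are shifted toward higher values in control 1, where 76.2% of them are above control 2, and lie around 0 between the KD libraries.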

How the data were processed

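Hemocyte RNA of 2 KD and 2 control animals was sequenced by the authors as single reads and mapped with HISAT2 2.2.1, sorted with Samtools and counted with featureCounts. The authors deposited TPM values calculated without a filter on low counts, and their DESeq2 results are not used here. No source used here gives the genome build or annotation, and no reference was used. The labels number the replicates in each group and name no pairing. Differences between libraries of a group hold for these animals only.

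The members and lists were chosen with earlier results of these data known. Whole reads and feature lengths were recovered from the deposited TPM as the smallest whole numbers (tolerance 1e-06 plus a relative 1e-09), for 100% of the 58226 features above 0, and are a lower bound. The exact 95% intervals for ratios of summed reads were Clopper-Pearson intervals scaled to TPM. limma 3.58.1 in R 4.3.3 was fitted on log2(TPM + 1) with a trend, two-sided, without covariates, on features with a mean of at least 1 TPM, with Benjamini-Hochberg adjustment over all. The scripts were tested on simulated data. The text describes the members of the 5 largest runs (ties ordered by total control level), the members with no KD read and the 10 members of highest control level. At most 2 full IDs are given, those of highest control level among near-silenced and among other members. Features in the threshold, few-read and within-control paragraphs were chosen after their values were seen. Alternatives were other folds, filters, scalings, pseudocounts, limits, fits and each library left out. Python 3.11.15 was used for the rest.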

Additional observations from a re-analysis of the deposited data

How the results depend on the processing

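The 193 members became 357 with a 2-fold limit, 51 at a mean of at least 5 TPM, 1442 without a filter and 425 with group means in place of the lower and higher values, and lay between 213 and 419 with a library left out. The 63 near-silenced members became 12 at 5 TPM, 987 without a filter, 120 with group means, 35 at a stricter limit of 20-fold and 109 at a looser limit of 5-fold, and lay between 56 and 125 with a library left out. The 47 members in runs became 84 with a 2-fold limit, 6 at 5 TPM, 194 without a filter, 93 with group means, 20 at a distance of 1 and 74 at a distance of 100, and lay between 35 and 83 with a library left out. These counts were taken with looser or stricter limits or with fewer libraries. With a library left out, the mean of at least 1 TPM was taken over the libraries kept. The part of each in the counts was not tested. With the 100 highest features kept in, a 4-fold limit or another scaling, these counts stayed within 1.5 times, and raising KD values to 3 reads left 181 members.

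The 42 members past the threshold of limma became 19 with a pseudocount of 0.1, 21 without the 10 highest features and 93 with voom on recovered reads. At 5 TPM 51 members were tested, of which 20 passed. Without a filter limma called 0, with 191 members and 4116 of 58226 features tested at an unadjusted p under 0.05. The count lay between 83 and 186 with a library left out, where the lone library is assumed to vary like the others. For these the cause was not tested. The labels name no pairing. The difference of replicate 1 and 2 had a correlation of -0.34 between the groups over features, which cannot show whether animals were paired. The replicate block gave 174 members past the threshold, among 279 features called lower of 21674 tested. The crossed pairing, added after seeing the data, gave 83 members among 109 features called lower. Depth limits most the 76 members with under 10 KD reads, whose fold changes are known within wide limits.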
